A study of Mus musculus with 6 samples.

Results

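NF-kB is a family of dimeric transcription factors. The 10 genes described here encode 4 of its subunits and 6 proteins that act on it or on its signals. They were chosen by name from the deposited expression table: the subunits Nfkb1, Nfkb2, Rel and Relb, the IkB-type proteins Nfkbia, Nfkbie, Nfkbiz and Bcl3, and the ubiquitin enzymes Tnfaip3 and Birc3. All 10 were found among the 54532 genes of the table. In a resting cell, IkB proteins bind NF-kB dimers and keep them out of the nucleus; signals from TNF, interleukin 1 or Toll-like receptors activate the IKK kinase, IkB is degraded, and the dimers turn on inflammatory genes. Several of these genes are themselves NF-kB targets, so their RNA is often read as a trace of the pathway's own feedback. In the gut the pathway acts both in epithelial cells, where it is known for barrier protection, and in leukocytes, where it is known for cytokine production.

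The tissue was colon of C57BL/6 mice aged 56 days, flash-frozen whole. There were 3 libraries of the genotype IL10-/- and 3 of wild type (WT), with no treatment named. Interleukin 10 is a cytokine that damps inflammation, and its loss in mice is a widely used model of colitis. RNA was extracted from the whole tissue with Trizol, made into NEBNext Ultra libraries and sequenced on an Illumina GAIIx, and the comparison sets the colon RNA of IL10-/- mice against that of WT mice. The allele is not named in the sources used here. Nor do they say whether each library is a different animal, so p-values measure only the spread between these libraries, which may be technical.

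Each library held 13107941 to 15797928 reads, recovered from the deposited FPKM values (fragments scaled by the authors by gene length and by a size per library). That size was 0.836 to 1.23 times the recovered total and below it in 3 libraries, so it was not the read total itself, and the factor used is not given in the sources used here. Il10 RNA itself was at 10.6 to 14.5 FPKM in libraries labelled IL10-/-, against 0.173 to 0.757 FPKM in the WT libraries. Its RNA was thus not lower under the knockout label, and with the deleted part unknown it does not check the labels, and directions in the following depend on those labels. Tissue markers also differed in mean between the groups, and WT library 3 stood apart. No smooth muscle, epithelial or neuron and glia marker was called by limma at an adjusted p under 0.05. Smooth muscle markers were lower in mean for 10 of 10 genes in IL10-/-, with none at 0 in any library and a summed level of 183 to 1040 FPKM in IL10-/- and 1306 to 9113 FPKM in WT, the highest in WT library 3. All 11 epithelial markers had higher values, again with none at 0, and a sum of 10519 to 15702 FPKM in libraries labelled IL10-/- and 2739 to 15346 FPKM in WT, the lowest in WT library 3. Neuron and glia markers had lower values for 9 of 10 genes, with a sum of 12.5 to 40.8 FPKM in the libraries labelled IL10-/- and 36.0 to 257 FPKM in WT, the highest in WT library 3. Mitochondrial genes took 8.61 to 21.96% of the reads in the libraries labelled IL10-/- and 11.7 to 43.4% in WT, again the highest in WT library 3. In bulk tissue, fewer cells of a type and less RNA per cell cannot be told apart.

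The stretches of DNA just upstream of these genes show the letters that NF-kB dimers are known to bind. RefSeq start-site windows on GRCm38.p6, each running from 250 bases before to 50 bases after a start, were on hand for 7 of the 10 members, that is all but Nfkb1, Relb and Nfkbiz. They were searched on both strands for the kappa B consensus motif, and overlapping matches were counted as one place. The motif was present in at least 1 window for 6 of the 7 genes, Birc3 being the exception, while it was present in 4.51% of all 32851 windows, or in at least 1 window of 5.14% of 27025 genes. The windows are shown because they place the motif beside the genes whose levels follow; a match describes letters and not a bound site, and the absence of one says only that these letters are not in this window. Below, each sequence runs 5′ to 3′ in the direction of the gene, with the matches in capitals. For Nfkbia, Nfkbie, Rel and Tnfaip3 the 130 bases before the start are given, and for Bcl3 and Nfkb2, whose matches lie in annotated exons or next to them, 29 or 30 bases around the match.
Nfkbia, chr12:55492648-55492777, minus strand: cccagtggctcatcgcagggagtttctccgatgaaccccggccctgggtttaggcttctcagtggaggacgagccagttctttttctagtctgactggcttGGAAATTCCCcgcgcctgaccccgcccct
Nfkbie, chr17:45555570-45555699, plus strand: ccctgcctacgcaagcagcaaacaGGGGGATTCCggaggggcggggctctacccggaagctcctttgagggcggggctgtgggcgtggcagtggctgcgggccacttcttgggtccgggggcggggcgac
Rel, chr11:23770970-23771099, minus strand: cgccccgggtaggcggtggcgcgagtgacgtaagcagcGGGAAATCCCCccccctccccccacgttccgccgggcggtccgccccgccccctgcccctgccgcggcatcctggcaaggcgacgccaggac
Tnfaip3, chr10:19015411-19015540, minus strand: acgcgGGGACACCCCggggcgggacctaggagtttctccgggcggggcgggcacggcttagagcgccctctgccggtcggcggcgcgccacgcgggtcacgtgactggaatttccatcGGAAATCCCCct
Bcl3, chr7:19822734-19822763, minus strand: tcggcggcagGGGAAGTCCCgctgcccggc
Nfkb2, first start, chr19:46304689-46304717, plus strand: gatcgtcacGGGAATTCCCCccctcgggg
Nfkb2, first start, chr19:46304716-46304745, plus strand: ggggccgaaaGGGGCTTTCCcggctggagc
Nfkb2, later start, chr19:46305695-46305724, plus strand: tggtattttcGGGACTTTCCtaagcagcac
In Nfkbia the match began 29 bases before the start, in Rel 92, in Nfkbie 106, and in Tnfaip3 matches began 125 and 12 bases before it. The Bcl3 match lay just after the start, from base 3 of the transcript. Nfkb2 had the most, with places 39 and 11 bases before its first start and 2 more in the windows of its later starts, of which 1 is shown, and Tnfaip3 had a second start site with no match.

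No member passed the test for a difference between the genotypes, and the log2 fold changes of the 6 IkB-type genes and ubiquitin enzymes, 0.50 to 1.16, were all above those of the 4 subunits, -0.11 to 0.43. This split of the members was compared after their values had been seen. It does not sort them by effect: Bcl3 and Nfkbiz also act as coactivators, and the Nfkb2 product p100 also acts as an inhibitor. Nor was the split complete in every alternative fit. With 0.1 added to each FPKM in place of 1, Rel was at 0.68, above Nfkbiz (0.64) and Birc3 (0.55). Without WT library 2, Rel was at 0.83, above Nfkbiz (0.77), Nfkbie (0.72) and Birc3 (0.56). Each gene was compared as log2(FPKM + 1) in the limma fit over the 12668 genes with a mean of at least 1 FPKM, and all 10 members passed that filter. By limma with Benjamini-Hochberg adjustment, 0 of the 10 members were called higher and 0 lower at 0.05, where 0.182% of all genes were called higher and 0% lower. At an unadjusted p under 0.05, 2 members (Bcl3 and Tnfaip3) were higher and 0 lower, against 6.14% of all genes higher and 4.03% lower. For 4 members (Bcl3, Tnfaip3, Birc3 and Nfkb2) every library labelled IL10-/- lay above every WT library, as it did for 8.84% of all genes, and for 0 members the reverse held, against 7.89%. The median log2 fold change of the members, IL10-/- minus WT, was 0.56, beside 0.04 over all genes tested, and 9 of the 10 were above 0, as were 54.1% of all genes. With 3 libraries a group, an exact two-sided permutation test of a single gene cannot give a p below 0.1.

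**Figure D1:**
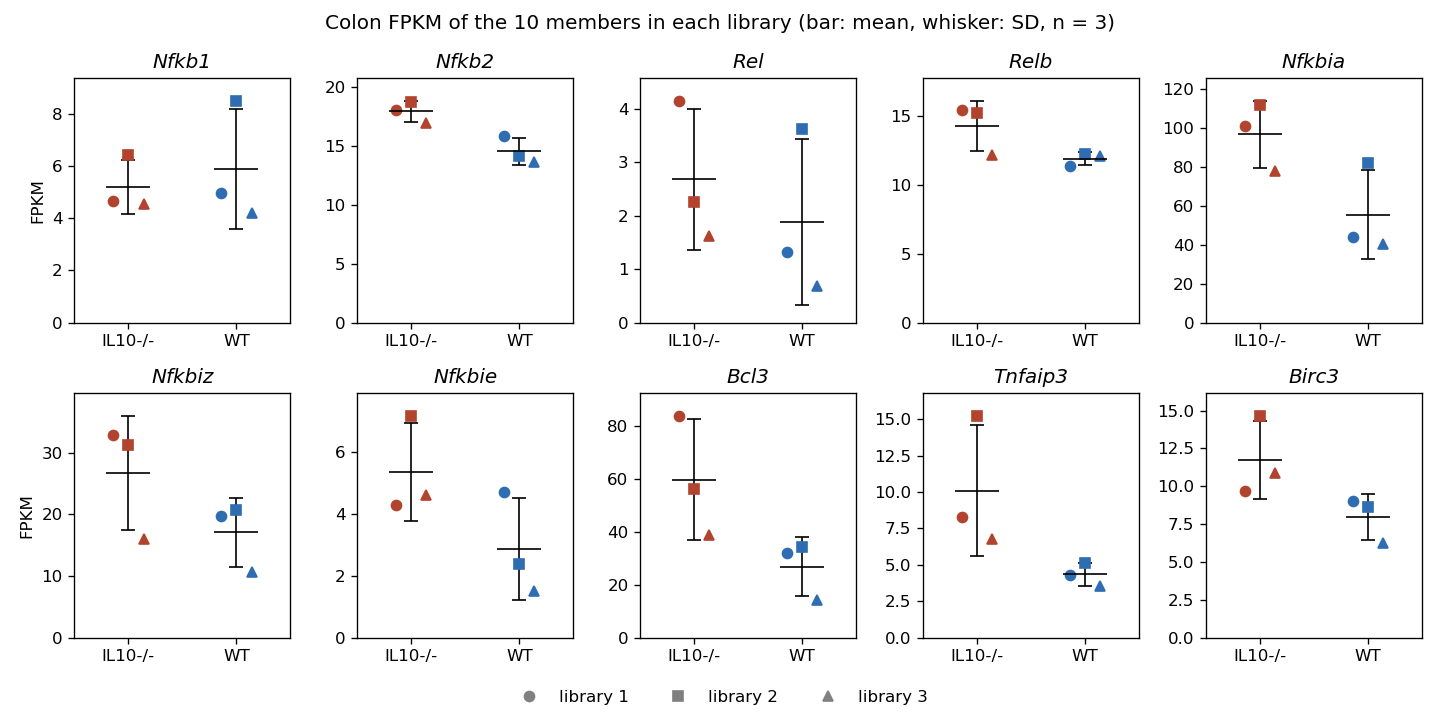
FPKM (vertical axis, from 0) of each member in the 3 libraries labelled IL10-/- (left, red) and the 3 WT libraries (right, blue); horizontal bars are means and whiskers SD. Bcl3, Tnfaip3, Birc3 and Nfkb2 show no overlap between the groups, and WT library 3 is the lowest of the 6 for 9 of the 10 genes.

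Among the subunits, Nfkb2 was the one whose groups did not overlap, and Nfkb1 had nearly equal levels. Nfkb1 (ENSMUSG00000028163; GRCm38 chr3:135584655-135691547, minus strand), which encodes p105, the precursor of the DNA-binding subunit p50, was at 4.66, 6.41 and 4.55 FPKM in libraries labelled IL10-/-, against 4.96, 8.52 and 4.20 FPKM in WT. The highest and the lowest value were both WT libraries, 2 and 3. Its log2 fold change was -0.11 (SE 0.29, limma adjusted p = 0.927), with a 95% interval of -0.80 to 0.57; it ran from -0.29 without WT library 3 to 0.15 without WT library 2, where the sign turned. Nfkb2 (ENSMUSG00000025225; chr19:46304737-46312090, plus strand) encodes p100, an IkB-like precursor cut to p52 in the alternative pathway, and was at 18.0, 18.7 and 16.9 FPKM in libraries labelled IL10-/-, against 15.8, 14.1 and 13.6 FPKM in WT. The groups were close and did not overlap, and the means of 17.9 ± 0.909 and 14.5 ± 1.16 FPKM (SD, n = 3 each) stood 1.23-fold apart. The log2 fold change was 0.29 (SE 0.22, limma adjusted p = 0.705).

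Relb, the usual partner of p52, was the steadiest member in WT, and Rel was the scarcest member by mean level. Relb (ENSMUSG00000002983; chr7:19606217-19629438, minus strand) was at 15.4, 15.3 and 12.2 FPKM in libraries labelled IL10-/-, against 11.4, 12.2 and 12.1 FPKM in WT. IL10-/- library 3 fell within the WT range, and the log2 fold change was 0.24 (SE 0.22, limma adjusted p = 0.764). The level ratio of Nfkb2 to Relb was 1.17, 1.23 and 1.39 in the libraries labelled IL10-/- and 1.39, 1.15 and 1.12 in WT, with overlap. Rel (ENSMUSG00000020275; chr11:23736847-23770970, minus strand), the subunit c-Rel known mainly from lymphocytes and myeloid cells, was at 4.15, 2.26 and 1.63 FPKM in libraries labelled IL10-/-, against 1.33, 3.62 and 0.684 FPKM in WT. The groups overlapped widely, and the WT library 3 value rested on 66 reads. Its log2 fold change of 0.43 (SE 0.44, limma adjusted p = 0.791) was 0.11 without WT library 3, 0.16 without IL10-/- library 1 and 0.83 without WT library 2.

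The 2 IkB proteins that hold dimers in the cytoplasm both had higher means in the libraries labelled IL10-/-, with groups that overlapped. Nfkbia (ENSMUSG00000021025; chr12:55489410-55492647, minus strand) encodes IkB-alpha, the quickly resynthesised inhibitor that ends a round of NF-kB activity. It was at 101, 112 and 77.8 FPKM in libraries labelled IL10-/-, against 43.9, 81.7 and 40.5 FPKM in WT. Only WT library 2 reached into the IL10-/- range, just above its lowest value. The means were 96.6 ± 17.2 and 55.4 ± 22.9 FPKM (SD, n = 3 each), a 1.74-fold difference, and the log2 fold change was 0.85 (SE 0.37, limma adjusted p = 0.507), with a 95% interval of -0.03 to 1.73. Nfkbie (ENSMUSG00000023947; chr17:45555703-45563169, plus strand), which encodes IkB-epsilon, was at 4.27, 7.16 and 4.61 FPKM in libraries labelled IL10-/-, against 4.70, 2.36 and 1.50 FPKM in WT. WT library 1 lay above 2 of the 3 libraries labelled IL10-/-, and the WT library 3 value rested on 59 reads. The log2 fold change was 0.78 (SE 0.35, limma adjusted p = 0.514), and 0.51 without WT library 3.

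The nuclear IkB-type proteins, which act on dimers already on DNA, were the second and, by mean level, the third most abundant members, and Bcl3 had the largest log2 fold change of the 10. Bcl3 (ENSMUSG00000053175; chr7:19808462-19822770, minus strand) encodes a cofactor of p50 and p52 dimers and was at 84.0, 56.4 and 38.8 FPKM in libraries labelled IL10-/-, against 31.9, 34.4 and 14.1 FPKM in WT. Every IL10-/- value was above every WT value, though IL10-/- library 3 and WT library 2 were close. The means were 59.7 ± 22.8 and 26.8 ± 11.1 FPKM (SD, n = 3 each), and the log2 fold change was 1.16 (SE 0.45, unadjusted p = 0.0387, limma adjusted p = 0.468). It was 0.76 without WT library 3, which moved it by over 1.5 times. Bcl3 overlaps the antisense genes Gm16174 and Gm16175 (means of 1.15 and 1.44 FPKM over the 6 libraries), and whether counting used strand is unknown, so reads in the overlap cannot be told apart. Nfkbiz (ENSMUSG00000035356; chr16:55811375-55838899, minus strand), which encodes IkB-zeta, a coactivator of a second wave of NF-kB target genes, was at 32.9, 31.3 and 16.1 FPKM in libraries labelled IL10-/-, against 19.8, 20.7 and 10.7 FPKM in WT. In both groups library 3 was the lowest, and the log2 fold change of 0.61 (SE 0.39, limma adjusted p = 0.650) was 0.32 without WT library 3 and 0.93 without IL10-/- library 3.

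Tnfaip3 was the member with the smallest p. It (ENSMUSG00000019850; chr10:19000910-19015657, minus strand) encodes A20, a ubiquitin-editing enzyme that shuts off signals to IKK, and was at 8.27, 15.3 and 6.79 FPKM in libraries labelled IL10-/-, against 4.33, 5.16 and 3.58 FPKM in WT. The groups did not overlap, and IL10-/- library 2 stood above the other 5 libraries. The means were 10.1 ± 4.52 and 4.35 ± 0.791 FPKM (SD, n = 3 each), a 2.32-fold difference, with a log2 fold change of 0.99 (SE 0.32, unadjusted p = 0.0181, limma adjusted p = 0.403). It ranked 567th by p among the genes tested. Birc3 (ENSMUSG00000032000; chr9:7848699-7873186, minus strand) encodes cIAP2, a ubiquitin ligase of TNF receptor complexes, and was at 9.70, 14.7 and 10.9 FPKM in libraries labelled IL10-/-, against 9.03, 8.60 and 6.24 FPKM in WT. The groups did not overlap, although IL10-/- library 1 was close to WT library 1, and the log2 fold change was 0.50 (SE 0.26, limma adjusted p = 0.559). Its neighbour and paralog Birc2, which encodes cIAP1, was at 9.63, 7.21 and 8.87 FPKM in libraries labelled IL10-/- and at 11.6, 6.17 and 10.1 FPKM in WT, a log2 fold change of -0.07 (SE 0.28, limma adjusted p = 0.956). The genes are related in sequence, and how the authors counted reads that map to both is not given, so their separate values are uncertain.

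**Figure D2:**
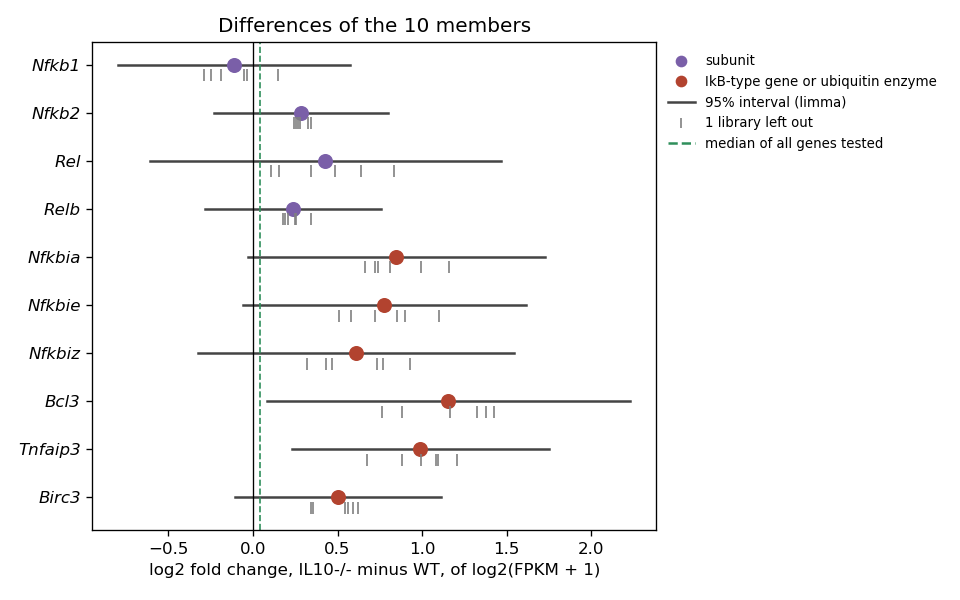
Log2 fold change of log2(FPKM + 1), IL10-/- minus WT (horizontal axis), of each member with its 95% limma interval; grey ticks are the values with 1 library left out and the dashed line is the median over all genes tested, 0.04. The 6 IkB-type genes and ubiquitin enzymes lie between 0.50 and 1.16 and the 4 subunits between -0.11 and 0.43.

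The order of abundance was much the same in every library. By FPKM, which is per length, Nfkbia ranked first and Bcl3 second of the 10 in all 6 libraries. Nfkb2 stood above Relb, and Relb above Birc3, in 6 of 6 libraries, while Nfkbiz stood above Nfkb2 in 4, Nfkb1 above Nfkbie in 4 and Tnfaip3 above Nfkb1 in 3. The last named order followed the label: Tnfaip3 was above Nfkb1 in the 3 libraries labelled IL10-/- and below it in the 3 WT libraries. Among all genes tested, the mean level of Nfkbia was above that of 94.7% and that of Rel above that of 23.3%.

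Ratios within a library do not depend on how libraries were scaled to each other, and 3 of the 7 computed separated the groups. The pairs were chosen after the values had been seen and several share a gene, so they are descriptions. All 3 had Nfkb1, whose own log2 fold change was -0.11, as the denominator. How often ratios of other gene pairs separate the groups was not computed. Nfkbia stood at 21.6, 17.4 and 17.1 times the FPKM of Nfkb1 in the libraries labelled IL10-/-, against 8.86, 9.60 and 9.66 times in WT. The groups did not overlap, and the WT values were close together. Bcl3 over Nfkb1 was 18.0, 8.80 and 8.52 in the libraries labelled IL10-/-, against 6.43, 4.04 and 3.35 in WT, and Tnfaip3 over Nfkb1 was 1.77, 2.38 and 1.49, against 0.873, 0.606 and 0.852 in WT. Nfkb2 over Nfkb1 overlapped, at 3.87, 2.92 and 3.72 in the libraries labelled IL10-/- and 3.19, 1.66 and 3.25 in WT. With Rela as the denominator, Nfkbia stood at 4.26, 4.02 and 2.95 times its FPKM in libraries labelled IL10-/-, against 2.52, 2.98 and 1.88 times in WT, where IL10-/- library 3 and WT library 2 overlapped. Birc3 over Birc2 also overlapped, at 1.01, 2.04 and 1.23 in the libraries labelled IL10-/- and 0.779, 1.39 and 0.618 in WT. Taking all members, the mean log2(FPKM + 1) of the 6 IkB-type genes and ubiquitin enzymes exceeded that of the 4 subunits by 1.24, 1.55 and 1.18 in the libraries labelled IL10-/-, against 0.98, 0.66 and 0.52 in WT. Unlike the ratios, this difference depends in part on how libraries were scaled, through the 1 added to each value. The groups did not overlap, and the difference between the group means, 0.60, ran from 0.49 to 0.74 with 1 library left out. This split was also compared after the values had been seen, so neither the separation nor that range tests it.

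**Figure D3:**
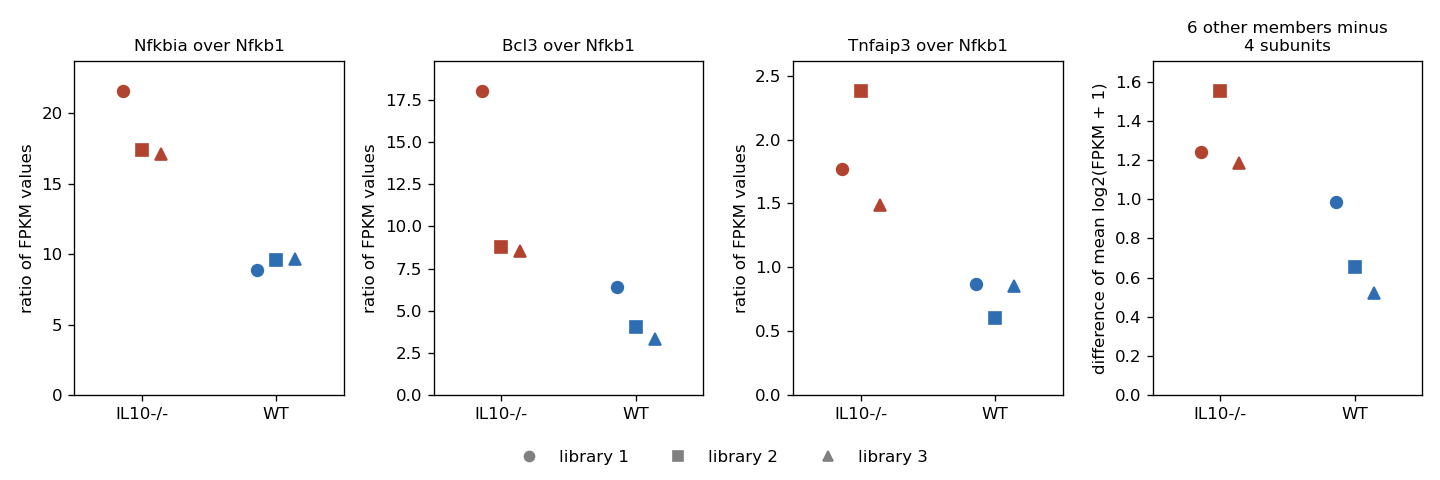
Ratio of FPKM values for Nfkbia, Bcl3 and Tnfaip3 over Nfkb1, and the mean log2(FPKM + 1) of the 6 other members minus that of the 4 subunits (vertical axes, from 0), for the 3 libraries labelled IL10-/- (left, red) and the 3 WT libraries (right, blue). In each panel all 3 IL10-/- points lie above all 3 WT points; Nfkbia over Nfkb1 is 17.1 to 21.6 in the libraries labelled IL10-/- and 8.86 to 9.66 in WT.

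Across libraries the members shared a low point in WT library 3 and a high point in IL10-/- library 1 or 2. WT library 3 was the lowest of the 6 for 9 members and WT library 1 for the other, Relb; IL10-/- library 1 was the highest for 4, IL10-/- library 2 for 5 and WT library 2 for 1, Nfkb1. The subunits, centred on their mean over the 6 libraries, stood at 0.24, 0.18 and -0.11 on the log2 scale in the libraries labelled IL10-/-, against -0.17, 0.23 and -0.37 in WT, and so overlapped. The 4 IkB-type genes stood at 0.61, 0.64 and 0.02, against -0.18, -0.10 and -0.99 in WT, with no overlap. WT library 3, the lowest for the members, also had the least epithelial and the most smooth muscle, neuron and glia marker RNA and the highest mitochondrial share, 43.4%. The part of these in the result was not tested. Without it all 9 positive members kept a positive log2 fold change, and the median of the 10 was 0.34.

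**Figure D4:**
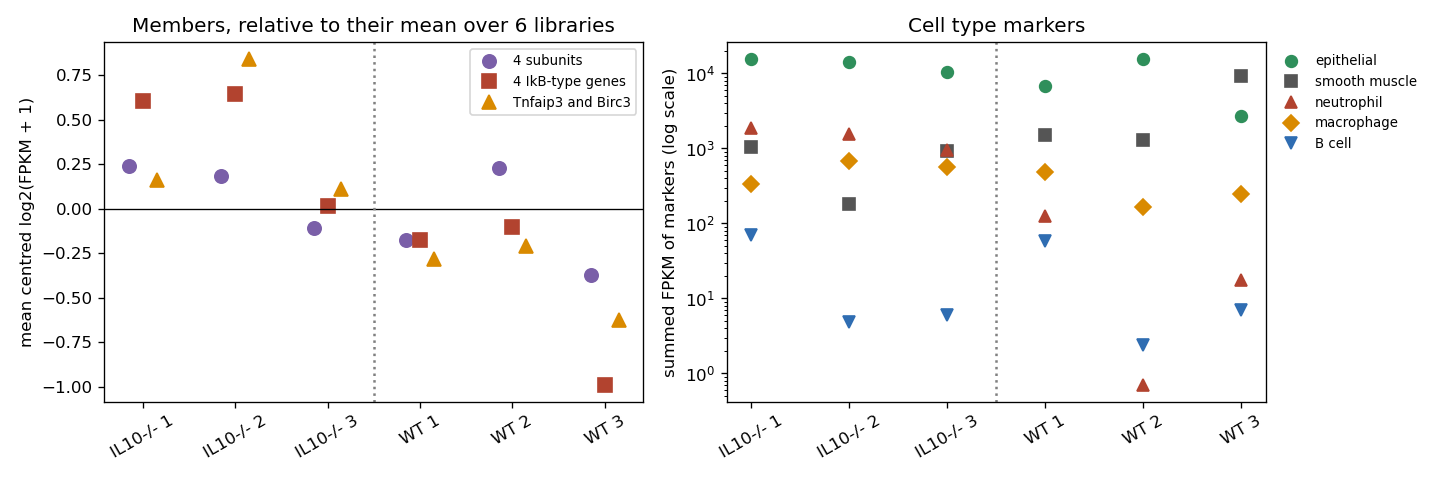
Left, mean centred log2(FPKM + 1) of 3 groups of members in each library; right, summed FPKM of cell type markers in the same libraries on a log axis, with IL10-/- libraries left of the dotted line and WT libraries right of it. WT library 3 is lowest for the members and for epithelial markers (2739 FPKM) and highest for smooth muscle markers (9113 FPKM).

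Neutrophil markers differed with the labels as well. Of 10 neutrophil markers 7 were tested, all 7 had higher values and 2 were called, beside 54.1% and 0.182% of all genes tested. S100a9, Cxcr2, Mmp8 and Retnlg were at 0 in all WT libraries. They passed the filter only through the IL10-/- libraries, which fixed their direction. So did S100a8 and Csf3r, at WT means of 0.104 and 0.737 FPKM, which favours higher values in such a count. Both called markers, S100a8 and S100a9, are among the genes so selected. Of those not tested, Ngp and Elane had higher means and Camp a lower one (0.109 against 0.163 FPKM in WT). The markers summed to 952 to 1886 FPKM in libraries labelled IL10-/- against 0.694 to 126 FPKM in WT, where 6 or 7 of the 10 were at 0 in each library. Of 9 macrophage markers tested 7 had higher values and 0 were called, with sums of 335 to 685 FPKM in libraries labelled IL10-/- and 165 to 481 FPKM in WT. B cell markers followed single libraries and not the label, at 69.4 FPKM in IL10-/- library 1 and 58.1 FPKM in WT library 1, against 2.41 to 7.05 FPKM in the other 4 libraries. Rel, common in B cells, was at 4.15 FPKM in IL10-/- library 1, its highest value, and at 1.33 FPKM in WT library 1. The part of these cells in the members' values was not tested.

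By the smallest distance between centred log2 values over the 6 libraries, the nearest member to Nfkb2 was Relb and the reverse (root mean square distance 0.116), Nfkbia and Tnfaip3 were nearest to each other (0.301), and so were Nfkbiz and Bcl3 (0.331). Among all other genes tested, the 5 nearest to the members' mean profile were Dnajc3, Ostc, Tirap, Plcb3 and Ap5s1, at distances of 0.0683 to 0.0945. Tirap encodes an adaptor of Toll-like receptors and was at 4.31, 5.65 and 3.50 FPKM in libraries labelled IL10-/-, against 2.84, 3.86 and 1.77 FPKM in WT. Dnajc3 and Ostc encode an endoplasmic reticulum chaperone and a subunit of the glycosylation machinery. None of the 5 was called by limma (adjusted p = 0.474 to 0.566).

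Outside the 10, no further subunit, IkB protein, adaptor or IKK component was called, and 4 target genes were. Of all genes tested, 0.182% were called higher and 0% lower. Rela, the main transactivating subunit, was at 23.6, 27.7 and 26.4 FPKM in libraries labelled IL10-/-, against 17.5, 27.4 and 21.6 FPKM in WT (log2 fold change 0.24, SE 0.27, limma adjusted p = 0.814), and the log2 fold change was 0.084 without WT library 1 and 0.40 without WT library 2. Nfkbib and Nfkbid, which encode further IkB proteins, had log2 fold changes of 0.43 and 0.31. That of Nfkbib was 0.26 without WT library 1, 0.94 without WT library 2 and 0.075 without WT library 3, and that of Nfkbid 0.59 without WT library 1 and 0.12 without WT library 2. Of 28 adaptors and IKK components, all tested, 16 had higher and 12 lower values, beside 54.1% of all genes tested with higher values. Among the 28, 0 were called and 0 had an unadjusted p under 0.05. Over all genes, 6.14% were higher and 4.03% lower at that unadjusted p. The median of the 28 was 0.07, or 0.11 without IL10-/- library 3 and 0.17 without WT library 2. The 4 with the smallest p were Traf6 (0.45), Card9 (0.63), Sharpin (0.40) and Traf3 (-0.32). Card9 was at 0.30 without WT library 2, and Traf3, which restrains the alternative pathway, was at 2.77 to 3.33 FPKM in IL10-/- and 3.84 to 4.63 FPKM in WT.

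Of 12 receptors and sensors upstream, 8 were tested and 7 had higher values, beside 54.1% of all genes tested, with a median of 0.70. Of the 8, 0 were called, beside 0.182% of all genes called higher. At an unadjusted p under 0.05, 4 were higher, beside 6.14% of all genes. Among those not tested, Il1rap (0.370 against 0.480 FPKM in WT), Tlr5 (0.310 against 0.446) and Tlr9 (0.0980 against 0.132) had lower means in IL10-/-. Il18r1, also not tested, had a higher mean (1.31 against 0.543 FPKM). Tnfrsf1b, a TNF receptor found on leukocytes, was at 25.6, 35.0 and 18.7 FPKM in libraries labelled IL10-/-, against 6.52, 7.58 and 3.47 FPKM in WT (log2 fold change 2.01, SE 0.35, limma adjusted p = 0.115). The other TNF receptor, Tnfrsf1a, was at 68.2, 90.3 and 59.2 FPKM in libraries labelled IL10-/-, against 24.0, 43.5 and 23.4 FPKM in WT (log2 fold change 1.27, SE 0.35, limma adjusted p = 0.332). Neither pair of groups overlapped. The sensors of bacterial products Tlr2 and Tlr4 had log2 fold changes of 1.15 and 0.87.

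Of 15 other negative regulators, 11 had higher and 4 lower values, with 0 called, 2 at an unadjusted p under 0.05 in the higher direction and a median of 0.20. Over all genes tested, 54.1% had higher values, 0.182% were called higher and 6.14% were higher at an unadjusted p under 0.05. Zc3h12a, which encodes the RNA-cutting enzyme Regnase-1, was at 60.7, 73.4 and 48.0 FPKM in libraries labelled IL10-/-, against 11.7, 7.99 and 5.10 FPKM in WT. The lowest IL10-/- value was several times the highest WT value, and the log2 fold change of 2.78 (SE 0.35) exceeded that of each of the 10 members, with a limma adjusted p of 0.0537. Tnip3, which encodes a partner of A20, was at 12.4, 11.0 and 6.29 FPKM in libraries labelled IL10-/-, against 4.23, 0.652 and 0.858 FPKM in WT (log2 fold change 2.07, SE 0.49, limma adjusted p = 0.251). Irak3 and Rnf11 had log2 fold changes of 0.59 and -0.58, and that of Irak3 was 0.32 without WT library 2. The median of this list was -0.087 without WT library 3.

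Of 36 NF-kB target genes listed, 31 were tested and 30 had higher values, beside 54.1% of all genes tested, with a median of 1.21. Cxcl1, Cxcl2, Cxcl3, Cxcl5, Csf3, Mmp9 and Ccr7 had WT means under 1 FPKM. They passed the filter only through the IL10-/- libraries, which favours higher values in such a count. Of those not tested, Il12b was lower in mean (0.153 against 0.220 FPKM in WT), and Il6, Il23a, Sele and Csf2 were higher. By limma with adjustment over all genes tested, 4 rose and 0 fell, beside 0.182% and 0% of all genes. At an unadjusted p under 0.05, 15 were higher, beside 6.14% of all genes. Cxcl3, a neutrophil attractant, was at 4.17, 4.78 and 3.96 FPKM in libraries labelled IL10-/- and had 0 reads in each of the 3 WT libraries. Setting the WT group at 3 reads in total, the 95% upper limit for a count of 0, the mean of Cxcl3 was at least 212-fold higher. That floor covers counting error in WT only, and not the spread between libraries. The log2 fold change of Cxcl3 on log2(FPKM + 1) was 2.40 (SE 0.21, limma adjusted p = 0.0157). The related Cxcl1 was at 9.08, 15.1 and 15.9 FPKM in libraries labelled IL10-/-, against 0.727, 0.0808 and 0.413 FPKM in WT (limma adjusted p = 0.0157). Cxcl2 was at 8.73, 23.8 and 13.8 FPKM in libraries labelled IL10-/-, against 0.390, 0.220 and 0.337 FPKM in WT (limma adjusted p = 0.0240). Nos2, which encodes an enzyme that makes nitric oxide in inflamed tissue, was at 237, 272 and 68.6 FPKM in libraries labelled IL10-/-, against 3.90, 0.515 and 0.123 FPKM in WT (limma adjusted p = 0.0381). The number of calls changed with 1 library left out. The list had 0 called without IL10-/- library 2, IL10-/- library 3 or WT library 3. It had 2 without WT library 1 or WT library 2, and 3 without IL10-/- library 1. The calls over all genes, 23 in the reported fit, were 4, 7 and 5 without IL10-/- library 2, IL10-/- library 3 and WT library 3. The log2 fold changes with 1 library left out were 2.34 to 2.45 for Cxcl3 and 3.16 to 3.58 for Cxcl1. They were 3.19 to 3.86 for Cxcl2 and 5.92 to 6.99 for Nos2.

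Of 15 genes of the alternative pathway, which runs through p100 and Relb, 10 were tested and 9 had higher values, beside 54.1% of all genes tested. Of the 10, 0 were called, beside 0.182% of all genes called higher. At an unadjusted p under 0.05, 2 were higher, beside 6.14% of all genes. The median of the 10 was 0.58. Tnfsf13b, which encodes the B cell survival factor BAFF, was at 3.62, 3.87 and 3.90 FPKM in libraries labelled IL10-/-, against 1.91, 1.64 and 0.642 FPKM in WT (log2 fold change 1.04, SE 0.27, limma adjusted p = 0.304). The groups did not overlap. Madcam1, Cd40 and Ltbr had log2 fold changes of 1.01, 0.75 and 0.47, and that of Ltbr was 0.28 without WT library 1 and 0.70 without WT library 2. The list's median was 0.88 without WT library 1.

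**Figure D5:**
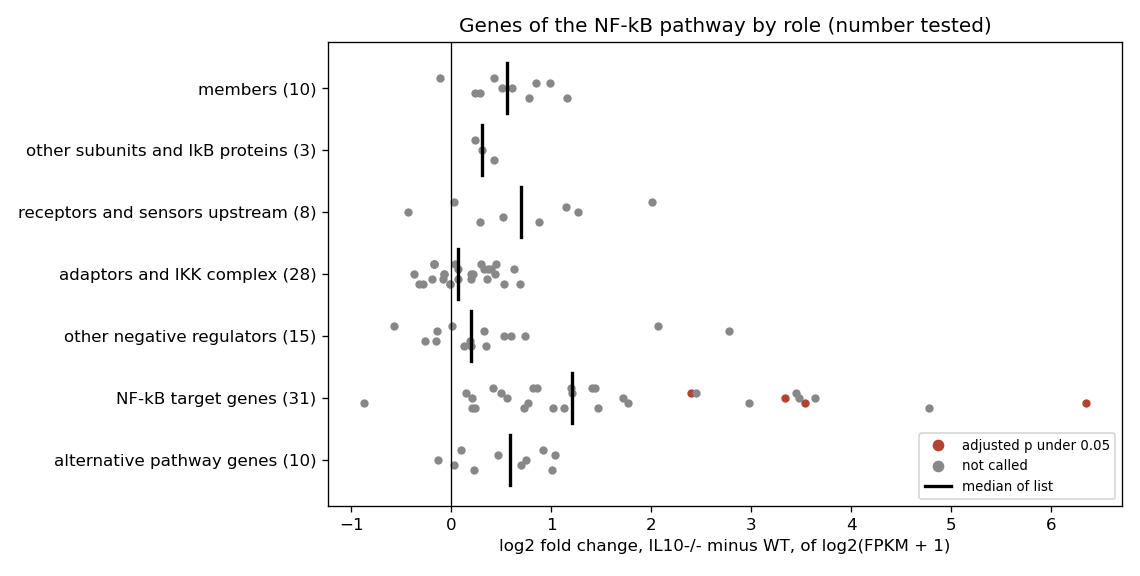
Log2 fold change of log2(FPKM + 1), IL10-/- minus WT (horizontal axis), of each tested gene of the pathway by role, with the number tested in brackets, called genes in red and list medians as black bars. The medians run from 0.07 for adaptors and the IKK complex to 1.21 for target genes, with the 10 members at 0.56.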

How the data were processed

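The authors deposited 1 table of FPKM values per gene, with lengths and coordinates per the file headers; The submitters' processing notes list the aligner Bowtie (0.12.2) and, with no role, the builds mm8 and hg38. How reads were counted, by strand or not, and what was done with multiply mapping reads, is not given in the sources used here. Among 54409 gene identifiers found in GENCODE M21, 98.3% had the same coordinates, 9 of the 10 members among them (Nfkb2 differed), so coordinates are given as GRCm38. Gene length, a value of its own in the deposited table, was used to recover reads: for 100% of values, FPKM times length gave whole reads within 0.01 after division by the library's value of 1 read. Floors and read numbers cover counting error only. Between libraries of a group chi-square per gene was 60.7 or more, which is above sampling noise, so no library was counted as a repeat of another; whether they are separate animals is not shown by this.

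The test was limma 3.58.1 in R 4.3.3 (mean trend, no replicate block) on log2(FPKM + 1), which understates the change of low genes, for genes averaging 1 FPKM or more, and Benjamini-Hochberg adjustment over all 12668 genes. It was tested on simulated data of the same genes (10 runs, 200 changed genes). Alternatives were a pseudocount of 0.1, no filter, a mean of at least 5, quantile scaling, TPM, eBayes without trend or robust, library weights, voom on recovered reads, a replicate block and each library left out. Named genes were all members, called genes of each pathway list or else up to 4 with the smallest p, and the 5 genes nearest to the members' profile, with each member's nearest other member; Birc2 and the genes that overlap Bcl3 were added. Members and lists were chosen with earlier results of these data known. Tables used Python 3.11.15, pandas 2.3.3 and matplotlib 3.10.9.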

Additional observations from a re-analysis of the deposited data

How the results depend on the processing

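Over the 16 alternatives, 0 of the 10 members were called in either direction in each, and 156 of 158 values of single members kept their direction. The 2 exceptions were Nfkb1, at 0.10 with a weight per library and 0.15 without WT library 2 (-0.29 to 0.15 with 1 library left out); the cause was not tested. The lowest adjusted p of any member was 0.0636, for Nfkbia with a weight per library. The members' median lay between 0.34 and 0.75. The mean excess of the other 6 members over the 4 subunits, a result added after seeing the data, lay between 0.48 and 0.74. Single genes did not always keep that order. Rel was above Birc3 with a pseudocount of 0.1, with library weights and with voom. It was also above Birc3 without IL10-/- library 2, IL10-/- library 3 or WT library 2. Among other named genes, Nfkbid turned to -0.10 with library weights. Whether the replicate numbers pair the libraries is not settled. The correlation of deviations was -0.149, 0.180 and 0.396 for numbers 1 to 3. IL10-/- libraries 2 and 3 correlated best with the WT library of their own number. IL10-/- library 1 correlated best with WT library 2, at 0.177. The replicate block left 7 genes called higher over all genes and 1 NF-kB target, with 0 members.

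Genes called higher, 23 in the reported fit, were 4 with no filter, 44 with TPM, 237 with library weights, 2 with voom, and 4 to 27 with 1 library left out. Genes called lower, 0 as reported with 510 at an unadjusted p under 0.05, were 1 at a mean of at least 5, 1 with quantile scaling, 2 with TPM, 94 with library weights, and 0 to 3 with 1 library left out. NF-kB targets called, 4 as reported, were 0 with no filter, 10 with library weights, 1 with voom and 0 to 3 with 1 library left out. Zc3h12a was the 1 other negative regulator called at a mean of at least 5, with TPM, without trend and with library weights; Tnfrsf1b and Tnfrsf1a were the 2 receptors called with library weights. The target median was 1.78 with a pseudocount of 0.1, 2.45 at a mean of at least 5, 1.52 with TPM, 1.78 with voom, and 1.05 to 1.59 with 1 library left out. The receptor median was 1.00 with a pseudocount of 0.1, 0.40 with no filter, 1.27 at a mean of at least 5, 0.91 with TPM, 1.03 with voom, and 0.56 to 0.84 with 1 library left out. The alternative pathway median was 0.39 with no filter, 0.35 at a mean of at least 5, 0.43 with quantile scaling, 0.72 with TPM, and 0.47 to 0.88 with 1 library left out; that of other negative regulators ran from -0.087 to 0.34 with 1 library left out. TPM moved the median of all genes to 0.15, so TPM medians stand above that. The cause of these moves was not tested. Members rested on 59 to 2824 reads a library, fewest for Nfkbie and Rel.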
